A study of Mus musculus with 35 samples.

Results

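Genes that mark newborn neurons or push progenitors toward a neuronal fate were followed in the mouse brain after closed head injury. They were chosen by name as 8 protein-coding genes, Dcx, Sox11, Neurog2, Neurod1, Sox2, Dlx2, Tubb3 and Igfbpl1, out of 21203 genes in the table. All 8 passed the filter on low counts, which kept 17131 genes. Male C57BL/6NCrl mice, 8 to 9 weeks old at the start, received a closed head injury and, on day 5, an injection into the left hippocampus of PBS, of mesenchymal stem cells (MSCs) from the same mouse strain, or of IL-4 MSCs, the same cells given a synthetic mRNA that encodes the cytokine interleukin-4. Tissue around the injection site was taken 1 week post injury (wpi), 2 days after the injection, or 3 wpi, 16 days after it. Sham mice went through every step except the impact and received no injection, so injury and injection cannot be told apart in any comparison with Sham. Each group had 5 mice with counts, except PBS at 3 wpi with 4. Of the 5 sham mice, 2 were taken at week 1 (mice 3 and 4) and 3 at week 3 (mice 1, 2 and 5). Each library was 1 mouse, and the number that opens a mouse's label is the same within each injured group and differs between the week 1 and week 3 sham mice, so anything it marks cannot be told apart from the injured group or from the sham week. The MSCs were bought as primary cells and grown in culture before use, and the IL-4 mRNA given to the IL-4 MSCs was transient.

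New neurons are made from neural stem cells, which in the adult mouse sit mainly in the dentate gyrus of the hippocampus and along the lateral ventricle. Sox2 keeps stem cells undifferentiated. Neurog2 and Neurod1 are basic helix-loop-helix factors of the glutamatergic path, while Dlx2 is a homeobox factor of the GABAergic path. Sox11, Dcx, Tubb3 and Igfbpl1 come on as cells become young neurons, and several of the 8 are also used by other cells: Sox2 by astrocytes, Neurod1 by granule neurons, and Tubb3 by neurons of any age.

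The libraries held 29838423 to 41554322 counts, with a median of 32655330, and no pair of libraries was identical. A score for each set of region markers was taken per mouse as the mean log2 CPM (counts scaled to library size and composition) of the set. The neocortex score lay between 5.52 and 6.14 in all mice, so the labelled tissue was present throughout, and transcripts of the hippocampus and striatum were present too. The striatum score (13 genes, among them Drd1, Drd2 and Penk) set some mice apart. It was 5.95, 5.89, 6.72 and 6.21 in mice 1, 3, 4 and 5 of the IL-4 MSC group at 3 wpi, 3.82 in mouse 2 of that group, and 2.99 to 5.09 in every other mouse. Within Sham it was 2.99 and 3.01 in the week 1 mice and 4.78, 4.96 and 5.07 in the week 3 mice. Against PBS at 3 wpi, the IL-4 MSC group had higher levels of 13 of 13 striatum markers. For Igfbpl1, Neurod1, Neurog2, Dlx2 and the list genes named below, differences of the IL-4 MSC group at 3 wpi are therefore also given with the striatum score in the fit. That score follows the group. With it the share of all genes that passed went from 4.27%, 2.94% and 3.47% to 0.636%, 0.0292% and 0.00584% against Sham, PBS and MSCs. A call lost in that fit is therefore not particular to the gene.

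The genes differed widely in abundance. On the TPM scale, which corrects for transcript length, the median level over the 34 mice was 322 for Tubb3, 45.3 for Sox2, 11.4 for Dcx, 10.7 for Neurod1, 9.67 for Sox11, 4.28 for Dlx2, 1.24 for Igfbpl1 and 0.697 for Neurog2. The ranges of Tubb3 (271 to 366) and Sox2 (35.9 to 54.0) overlapped those of no other member. The ranges of Dcx (9.0 to 13.4), Neurod1 (5.63 to 16.4) and Sox11 (7.43 to 12.5) overlapped one another, as did those of Igfbpl1 (0.479 to 2.75) and Neurog2 (0.238 to 1.28). In estimated counts, Neurog2 rested on 9 to 41 and Igfbpl1 on 26 to 137 a mouse, against 6799 to 11067 for Tubb3. Across mice the highest level was 5.84 times the lowest for Igfbpl1 and 5.21 times for Neurog2, 2.84 times for Neurod1 and 2.74 times for Dlx2, and 1.34 to 1.71 times for the other 4 genes.

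**Figure D1:**
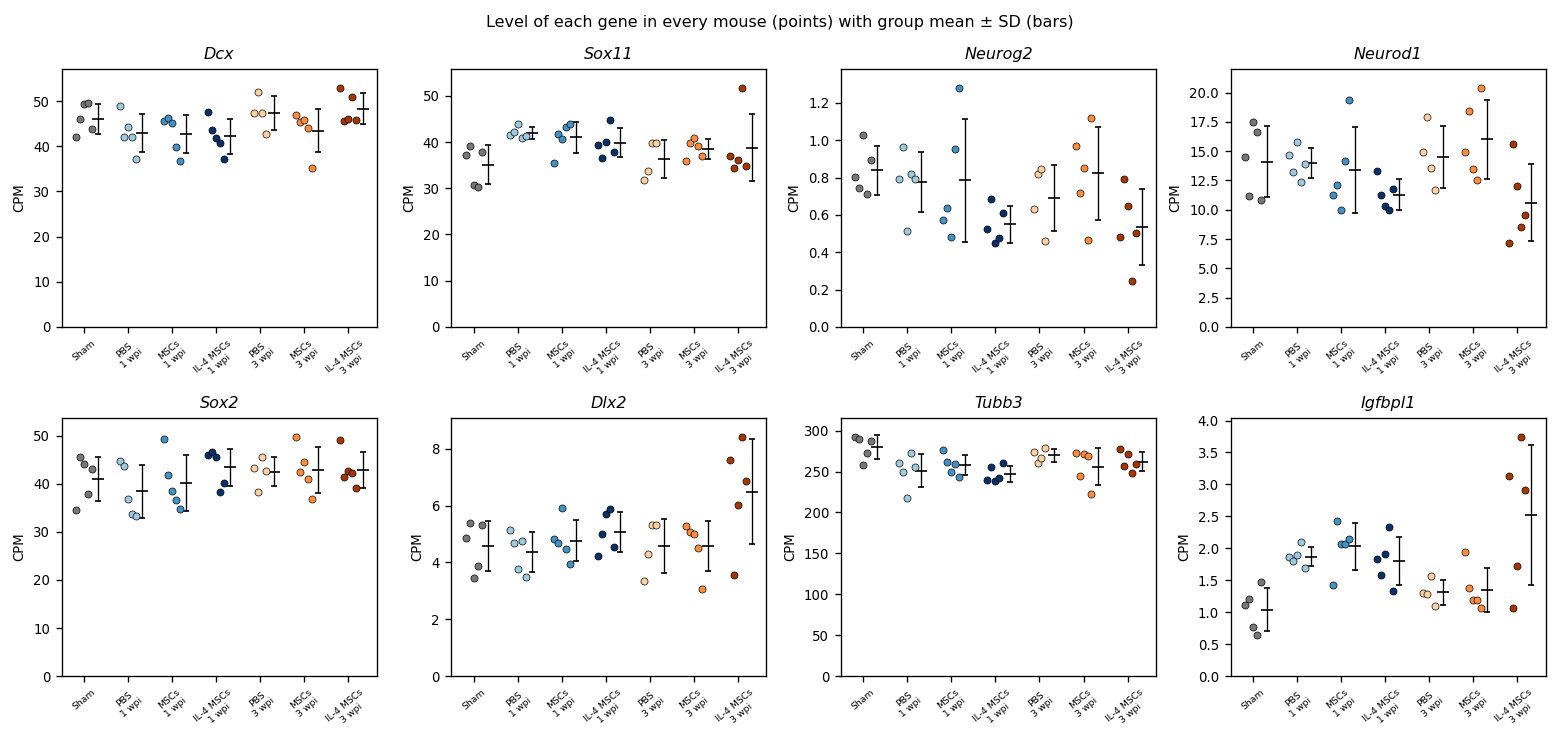
Level of each of the 8 genes in CPM (y axis, from 0) in the 7 groups (x axis), with 1 point per mouse and the group mean ± SD as a bar. Igfbpl1 and Dlx2 reach their highest points, 3.74 and 8.41 CPM, in the IL-4 MSC group at 3 wpi, where Neurod1 has its lowest, 7.20 CPM, while Dcx and Sox2 stay level.

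Igfbpl1 changed most. It encodes a secreted relative of the insulin-like growth factor binding proteins that marks newborn neurons, and lies on the minus strand at chr4:45809468-45826923 (GRCm38, 5 exons, ENSMUSG00000035551). In sham mice it measured 1.11, 1.21, 0.773, 0.640 and 1.48 CPM, the 2 lowest being the week 1 mice. In PBS mice at 1 wpi it measured 1.87, 1.80, 1.90, 2.10 and 1.70 CPM, all above the highest sham mouse. Of all genes tested, 10.2% did not overlap between these 2 groups. In MSC mice at 1 wpi the values were 1.42, 2.43, 2.06, 2.07 and 2.15 CPM. In IL-4 MSC mice at 1 wpi they were 1.83, 1.59, 1.91, 2.34 and 1.34 CPM. In each of these last 2 groups 1 mouse lay within the sham range.

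Against Sham at 1 wpi, Igfbpl1 was 1.81-fold higher in PBS mice (log2 fold change 0.86, SE 0.25, edgeR adjusted p = 0.0176), 1.96-fold higher in MSC mice (0.97, SE 0.25, adjusted p = 0.00531) and 1.74-fold higher in IL-4 MSC mice (0.80, SE 0.25, adjusted p = 0.0115). The group means were 1.87 ± 0.149, 2.03 ± 0.369 and 1.80 ± 0.374 CPM against 1.04 ± 0.339 in Sham (SD, n = 5 each). Among the 3 treatments at 1 wpi no difference passed the test, with log2 differences of −0.06 (95% interval −0.54 to 0.42) for IL-4 MSCs against PBS and −0.17 (−0.65 to 0.31) against MSCs. All 3 calls against Sham turned on the sham mice of week 1. With only those 2 sham mice the log2 changes were 1.39, 1.51 and 1.35 (adjusted p = 0.00838, 0.00293 and 0.00283). With only the 3 sham mice of week 3 they were 0.56, 0.68 and 0.52 (adjusted p = 0.202, 0.107 and 0.170). The PBS call was also lost without sham mouse 3 (0.77, adjusted p = 0.0533) or sham mouse 4 (0.71, adjusted p = 0.0663).

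At 3 wpi Igfbpl1 stood at 1.30, 1.28, 1.57 and 1.09 CPM in PBS mice and at 1.94, 1.38, 1.19, 1.19 and 1.06 CPM in MSC mice. In IL-4 MSC mice it stood at 3.13, 1.07, 1.72, 3.74 and 2.92 CPM. Mice 1, 4 and 5 of that group exceeded every other mouse in the study, and mouse 2 lay among the lowest injured mice. Against Sham, Igfbpl1 was 2.45-fold higher in the IL-4 MSC group (log2 1.29, SE 0.25, adjusted p = 0.00296), while in PBS (0.35, SE 0.27, adjusted p = 0.978) and MSC mice (0.39, SE 0.26, adjusted p = 0.620) it did not pass the test. It was 1.93-fold higher than in PBS mice (log2 0.95, SE 0.25, adjusted p = 0.0359) and 1.87-fold higher than in MSC mice (0.91, SE 0.24, adjusted p = 0.0301). The contrast of IL-4 MSCs with MSCs differed between the weeks by −1.08 (1 wpi minus 3 wpi, SE 0.34, adjusted p = 0.0429), and that with PBS by −1.0 (95% interval −1.71 to −0.29, SE 0.35, adjusted p = 0.0970). The first of these was lost when any 1 of 15 of the 20 mice was left out, at −1.08 to −0.87 with adjusted p up to 0.132.

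The 3 wpi calls were lost with the striatum score in the fit, where few genes of any kind passed. With that score in the fit the log2 change of Igfbpl1 in the IL-4 MSC group was 0.76 against Sham (adjusted p = 0.179), 0.25 against PBS (adjusted p = 0.959) and 0.30 against MSCs (adjusted p = 0.771), and the week difference was −0.60 (adjusted p = 0.267). With only the 3 sham mice of week 3 the change against Sham was 0.99 (adjusted p = 0.0730), and with only the 2 groups in the fit it was 1.28 (adjusted p = 0.119). The call against PBS was lost without IL-4 MSC mouse 1 (0.86), 4 (0.75) or 5 (0.89) or without PBS mouse 1 (0.94), 2 (0.93), 3 (1.05) or 4 (0.87), with adjusted p between 0.0571 and 0.166. The call against MSCs was lost without IL-4 MSC mouse 1 (0.82), 4 (0.72) or 5 (0.85) or without MSC mouse 2 (0.90), 3 (0.87), 4 (0.86) or 5 (0.83), with adjusted p between 0.0546 and 0.169. The call against Sham held without any 1 mouse (1.10 to 1.47). The 1 wpi calls against Sham kept adjusted p between 0.000682 and 0.00965 with the striatum score in the fit. Whether the striatum share of the tissue accounts for the Igfbpl1 level was not tested further, and in bulk tissue fewer cells of a type and less RNA per cell cannot be told apart.

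**Figure D2:**
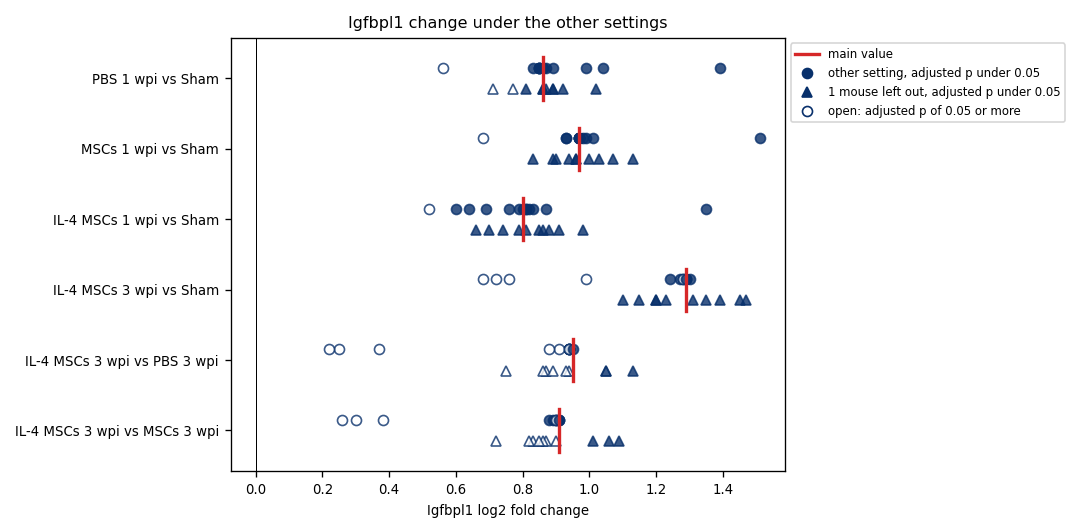
Log2 fold change of Igfbpl1 (x axis) in 6 comparisons (y axis), as reported (red line), under the other settings (circles) and with 1 mouse left out (triangles), filled where adjusted p was under 0.05. Every value lies above 0, and the open circles at 0.22 to 0.38 in the 2 lowest comparisons are the fits with region scores.

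Sox11, a SoxC factor that switches on neuronal genes in committed progenitors, lies on the minus strand at chr12:27334264-27342574 (GRCm38, 1 exon, ENSMUSG00000063632). It measured 37.2, 39.1, 30.8, 30.2 and 37.9 CPM in sham mice and 41.6, 42.2, 44.0, 40.9 and 41.3 CPM in PBS mice at 1 wpi, with no overlap, as for 10.2% of all genes tested. It was 1.20-fold higher there (log2 0.26, SE 0.09, adjusted p = 0.0492). In MSC mice at 1 wpi it measured 35.5, 41.8, 40.7, 43.2 and 43.8 CPM (log2 0.23, SE 0.09, adjusted p = 0.0826). In IL-4 MSC mice it measured 39.4, 36.6, 40.1, 44.8 and 37.8 CPM (0.18, SE 0.09, adjusted p = 0.117). The PBS call sat at the threshold: it was lost without sham mouse 3 (0.22) or 4 (0.21) or without any 1 of the 5 PBS mice (0.25 to 0.27), with adjusted p between 0.0623 and 0.151, and with only the sham mice of week 3 the change was 0.14 (adjusted p = 0.407). It was also lost without the filter on low counts (0.26, adjusted p = 0.0576) and with the ventricle wall and choroid plexus score in the fit (0.25, adjusted p = 0.0783). With only the sham mice of week 1 all 3 groups passed, at 0.44, 0.41 and 0.38 (adjusted p = 0.0119, 0.0129 and 0.0102). At 3 wpi the means were 36.3 ± 4.13 CPM in PBS mice (SD, n = 4), 38.5 ± 2.07 in MSC mice and 38.8 ± 7.27 in IL-4 MSC mice (SD, n = 5 each), and no comparison passed the test. Mouse 4 of the IL-4 MSC group reached 51.7 CPM, above the 34.4 to 37.0 of the others, and was also highest for Igfbpl1, Dlx2 and the striatum score. With group means subtracted, Sox11 and Igfbpl1 went together over the 34 mice (r = 0.59), which share libraries and depth.

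Dcx and Tubb3 build the microtubules of young neurons. Dcx, the microtubule-binding protein of migrating neuroblasts, lies on the minus strand at chrX:143855842-143933311 (GRCm38, 7 exons, ENSMUSG00000031285). Its group means ran from 42.2 ± 3.83 CPM in IL-4 MSC mice at 1 wpi to 48.3 ± 3.45 CPM at 3 wpi (SD, n = 5 each), with Sham at 46.1 ± 3.30. The 6 log2 changes against Sham ran from −0.13 to 0.06, and their 95% intervals together spanned −0.29 to 0.23. Between IL-4 MSCs at 3 and 1 wpi the log2 difference was 0.20 (SE 0.08, adjusted p = 0.0569). Tubb3, neuronal class III beta-tubulin, lies on the plus strand at chr8:123411424-123422015 (GRCm38, 4 exons, ENSMUSG00000062380). It measured 292, 290, 258, 272 and 287 CPM in sham mice and 240, 256, 238, 242 and 260 CPM in IL-4 MSC mice at 1 wpi, where it was 0.883 times the sham level (log2 −0.18, SE 0.05, adjusted p = 0.00775). Only 1 sham mouse, at 258 CPM, lay within the IL-4 MSC range. In PBS mice at 1 wpi, at 218 to 273 CPM, the change was −0.15 (SE 0.05, adjusted p = 0.0501), and in MSC mice, at 243 to 276 CPM, −0.12 (SE 0.05, adjusted p = 0.136). The PBS change sat at the threshold and passed in 7 of 14 other settings, DESeq2 among them, at −0.20 to −0.15 (adjusted p = 0.0219 to 0.0444). The IL-4 MSC call was lost without sham mouse 1 (−0.13, adjusted p = 0.0733), with only the sham mice of week 1 (−0.10, adjusted p = 0.299), and with library totals in place of the composition scaling (−0.11, adjusted p = 0.134). Beside it, 9 of 10 mature neuron markers were lower in the same comparison, with a median log2 change of −0.25, where 37.0% of all genes passed in either direction. In PBS and MSC mice at 1 wpi 4 of the 10 were lower in each, where 13.8% and 17.8% of all genes passed. At 3 wpi Tubb3 passed no comparison, with group means of 256 to 270 CPM.

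Sox2 passed no comparison. The gene, on the plus strand at chr3:34650405-34652461 (GRCm38, 1 exon, ENSMUSG00000074637), had group means between 38.4 ± 5.44 CPM (PBS, 1 wpi) and 43.4 ± 3.82 CPM (IL-4 MSCs, 1 wpi; SD, n = 5 each), and Sham stood at 41.0 ± 4.59. Its log2 changes against Sham ran from −0.09 to 0.08, with 95% intervals that together spanned −0.29 to 0.28. With group means subtracted, its level went with that of Dcx over the 34 mice (r = 0.62), and the 3 genes most like it were Heyl (r = 0.87), Sox9 (r = 0.79) and Trim59 (r = 0.76).

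Neurod1, Neurog2 and Dlx2 varied with the region scores. The bases before their starts are shown for these 3 genes only. With group means subtracted, r was 0.61 for Neurog2 and Neurod1, −0.78 for Neurod1 and Dlx2, and −0.47 for Neurog2 and Dlx2. Other pairs of members reached values as large, such as Dlx2 and Igfbpl1 (0.69) and Dcx and Sox2 (0.62). These values therefore do not single out the 3 genes, and shared control of them was not tested. RefSeq windows (GRCm38.p6) were matched for 7 of the 8 members, all but Igfbpl1, and were trimmed here to lie before the annotated start. They are written 5′ to 3′ on the gene's strand, with the E-box CANNTG, the core motif that basic helix-loop-helix factors bind, in capitals.
Neurod1, chr2:79456752-79456886, minus strand: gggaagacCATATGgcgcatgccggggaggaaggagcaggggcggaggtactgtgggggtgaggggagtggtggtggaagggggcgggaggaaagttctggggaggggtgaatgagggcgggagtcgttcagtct
Neurog2, chr3:127632886-127633134, plus strand: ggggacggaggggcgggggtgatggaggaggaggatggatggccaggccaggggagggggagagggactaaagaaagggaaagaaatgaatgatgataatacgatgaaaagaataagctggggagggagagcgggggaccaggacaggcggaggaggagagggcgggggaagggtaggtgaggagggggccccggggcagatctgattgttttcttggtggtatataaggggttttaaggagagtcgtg
Dlx2, chr2:71546755-71547004, minus strand: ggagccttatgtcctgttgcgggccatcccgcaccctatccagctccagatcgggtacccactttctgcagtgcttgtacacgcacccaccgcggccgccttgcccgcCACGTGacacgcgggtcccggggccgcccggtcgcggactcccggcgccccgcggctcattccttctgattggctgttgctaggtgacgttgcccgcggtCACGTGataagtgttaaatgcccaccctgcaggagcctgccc
The Neurod1 window held 1 E-box in 135 bases, and 45.6% of all 32851 windows of that length held at least 1. The Neurog2 window held 0 in 249 bases, where 66.1% held at least 1. The Dlx2 window held 2 in 250 bases, where 31.8% held at least 2. Both Dlx2 matches read CACGTG, which reads the same on either strand, and 0.429% of all windows held at least 2 copies of it. This form was counted because the Dlx2 window held it, so that share is no test of the window. These are matches of letters only, and binding was not measured.

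Neurod1 lies on the minus strand at chr2:79452521-79456751 (GRCm38, 2 exons, ENSMUSG00000034701). It measured 14.5, 11.2, 17.5, 16.6 and 10.8 CPM in sham mice, the 2 highest being the week 1 mice. At 3 wpi it measured 14.9, 17.9, 13.6 and 11.7 CPM in PBS mice, 14.9, 18.4, 13.5, 12.5 and 20.4 CPM in MSC mice, and 7.20, 15.6, 12, 8.57 and 9.58 CPM in IL-4 MSC mice. Mice 1, 4 and 5 of the IL-4 MSC group were the lowest of all 34 mice. The log2 difference from MSCs was −0.60 (SE 0.18, adjusted p = 0.0594), that from PBS −0.46 (SE 0.19, adjusted p = 0.195) and that from Sham −0.42 (SE 0.18, adjusted p = 0.184), and none passed with edgeR. DESeq2 called the difference from MSCs (−0.59, adjusted p = 0.0279), and edgeR did so without MSC mouse 4 (−0.68, adjusted p = 0.0378). Without mouse 2 of the IL-4 MSC group, the mouse with the low striatum score, all 3 passed, at −0.79, −0.65 and −0.61 (adjusted p = 0.00338, 0.0234 and 0.0239). With the striatum score in the fit and all mice kept, the differences were −0.03, 0.19 and 0.11 (adjusted p = 0.964, 0.884 and 0.791). At 1 wpi the means were 14.0 ± 1.31, 13.4 ± 3.67 and 11.3 ± 1.31 CPM in PBS, MSC and IL-4 MSC mice (SD, n = 5 each), with no call against the 5 sham mice. With only the sham mice of week 1 the change in IL-4 MSC mice passed (−0.59, adjusted p = 0.0399).

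Neurog2, on the plus strand at chr3:127633135-127635631 (GRCm38, 2 exons, ENSMUSG00000027967), acts before Neurod1 in the same path. It measured 0.714 to 1.03 CPM in sham mice and 0.449 to 0.685 CPM in IL-4 MSC mice at 1 wpi, with no overlap, as for 28.8% of all genes tested. It did not pass the test (log2 −0.60, SE 0.27, edgeR adjusted p = 0.0757). With only these 2 groups in the fit it passed (−0.57, adjusted p = 0.0249). At 3 wpi the IL-4 MSC mice measured 0.480, 0.790, 0.650, 0.246 and 0.504 CPM (log2 −0.66 against Sham, SE 0.27, adjusted p = 0.157). Without IL-4 MSC mouse 2 that change was −0.85 and passed (adjusted p = 0.0496), and with the striatum score in the fit it was −0.16 (adjusted p = 0.891).

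Dlx2, on the minus strand at chr2:71543408-71546754 (GRCm38, 3 exons, ENSMUSG00000023391), measured 4.87, 5.38, 3.47, 3.89 and 5.31 CPM in sham mice, the 2 lowest again being the week 1 mice. At 3 wpi it measured 3.36, 4.29, 5.33 and 5.31 CPM in PBS mice, 5.27, 5.07, 5.00, 4.50 and 3.07 CPM in MSC mice, and 7.59, 3.57, 6.02, 8.41 and 6.85 CPM in IL-4 MSC mice. Mice 1, 3, 4 and 5 of the IL-4 MSC group exceeded every other mouse. The log2 difference was 0.51 against Sham (SE 0.18, adjusted p = 0.0974), against PBS (SE 0.19, adjusted p = 0.144) and against MSCs (SE 0.18, adjusted p = 0.110), short of the threshold. Without mouse 2, the mouse with the low striatum score, it was 0.65 in all 3 comparisons and passed (adjusted p = 0.00776, 0.0127 and 0.00740). Without any other 1 mouse of the groups compared it was 0.38 to 0.59 and did not pass. With the striatum score in the fit and all mice kept it was −0.03, −0.17 and −0.09 (adjusted p = 0.968, 0.934 and 0.888). At 1 wpi the group means were 4.36 to 5.08 CPM, with no call.

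Region scores and gene levels were then compared over the 34 mice after group means were subtracted, by permuting mice within groups (two-sided, 80 relations of 8 genes and 10 scores). The sham mice of both weeks were permuted as 1 group. Their difference between weeks, seen in the striatum score, therefore counts here as spread within a group. After Benjamini-Hochberg adjustment 15 relations passed by Pearson's r, 13 by Spearman's rho and 11 by both. Neurod1 fell with the striatum score (r = −0.88, rho = −0.86, permutation p = 1.00e-05 for each, the smallest they can give, adjusted p = 0.000160), with the same sign in 7 of 7 groups. It rose with the dentate gyrus score (r = 0.84, rho = 0.88, adjusted permutation p = 0.000160 for each) and the hippocampal CA field score (r = 0.91, rho = 0.87, adjusted permutation p = 0.000160 for each), also in 7 of 7 groups. Dlx2 rose with the striatum score (r = 0.83, rho = 0.77, adjusted permutation p = 0.000160 for each) in 7 of 7 groups. Neurog2 fell with it (r = −0.63, rho = −0.60, adjusted permutation p = 0.00770 and 0.0111) in 6 of 7 groups. For Igfbpl1 r was 0.61 and rho 0.47 (adjusted permutation p = 0.0349 and 0.101), with the sign shared by 5 of 7 groups. The 2 mice farthest from the median of the striatum score after group means were subtracted were IL-4 MSC mouse 2 at 3 wpi and MSC mouse 5 at 1 wpi. Without them r was −0.83 for Neurod1, 0.76 for Dlx2, −0.51 for Neurog2 and 0.52 for Igfbpl1. Over the 29 mice outside the IL-4 MSC group at 3 wpi, r was −0.92 for Neurod1, 0.75 for Dlx2, −0.56 for Neurog2 and 0.42 for Igfbpl1. Tubb3 rose with the striatum score and passed by r only (r = 0.46, rho = 0.43, adjusted permutation p = 0.0302 and 0.0895). Tubb3 fell with the hippocampal CA field score and passed by both (r = −0.57, rho = −0.62, adjusted permutation p = 0.00286 and 0.00423). Sox11 had r = 0.48, Dcx r = 0.15 and Sox2 r = 0.25 with the striatum score, none of which passed.

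**Figure D3:**
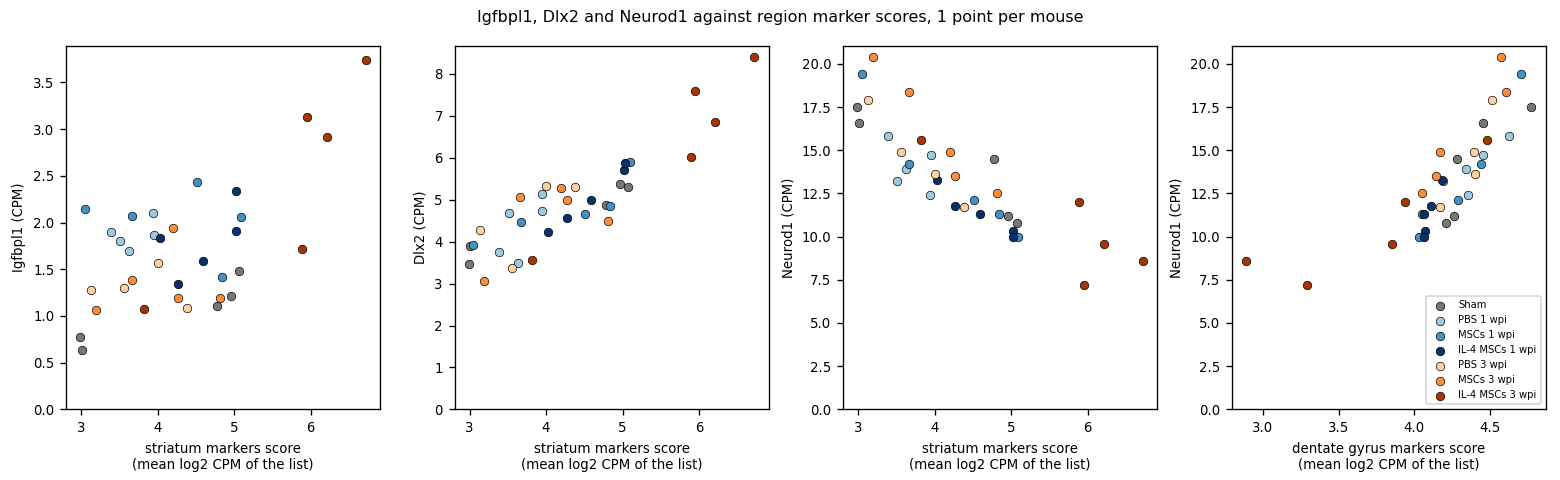
Igfbpl1, Dlx2 and Neurod1 in CPM (y axes, from 0) against the striatum score, and Neurod1 against the dentate gyrus score (x axes, mean log2 CPM of the marker set), with 1 point per mouse coloured by group. Neurod1 falls and Dlx2 rises along the striatum score in mice of all groups, and 4 of the 5 IL-4 MSC mice at 3 wpi lie at 5.89 to 6.72.

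The 3 genes most like each member were ranked by Pearson's r of log2 CPM over the 34 mice with group means subtracted. They were Neurod6 (r = 0.94), Tcf4 and Zbtb18 (both 0.92) for Neurod1, and Rxrg (0.89), Plppr1 and Tmem158 (both 0.88) for Dlx2. For Neurog2 they were Mtfp1 (0.76), Rnf182 (0.71) and Atf6b (0.70). For Tubb3 they were Stmn4 and Sept4 (both 0.85) and Flywch2 (0.84). For Dcx (Slc6a6 0.78, Lingo2 and Tek 0.75), Sox11 (Tmc4 0.75, Rrp1b and N4bp1 0.74) and Igfbpl1 (Igf2bp2 0.79, Whrn 0.78, Ankrd63 0.74) no value exceeded 0.80. Without subtracting group means, Eomes, the factor of intermediate progenitors, was among the 3 most like Igfbpl1 (r = 0.73), and Dlx5 among those most like Dlx2 (r = 0.89). Dlx2 and Neurod1 themselves had r = −0.78, Dlx2 and Igfbpl1 0.69, and Neurog2 and Neurod1 0.61.

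Counted over the members, few passed the test in any comparison. Against Sham at 1 wpi, 2 of 8 members passed in PBS mice (both higher), where 13.8% of all genes tested passed in either direction. In MSC mice it was 1 of 8 (higher), where 17.8% of all genes passed. In IL-4 MSC mice it was 2 of 8 (1 higher, 1 lower), where 37.0% passed. At 3 wpi the counts were 0 of 8 in PBS mice, where 0.0292% of all genes passed, 0 of 8 in MSC mice (1.15%) and 1 of 8 in IL-4 MSC mice (4.27%). For the 0 counts edgeR gave 0 and 1 members at an unadjusted p under 0.05, and DESeq2 called 0 in each. With 8 members, none of these shares is read as particular to them.

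**Figure D4:**
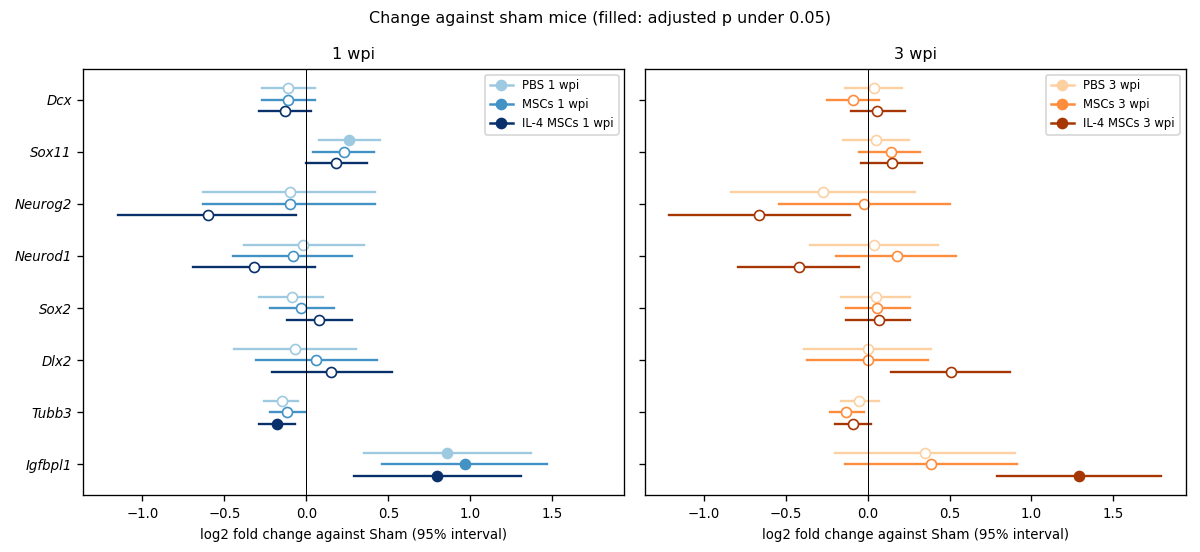
Log2 fold change against Sham (x axis) of each gene (y axis) at 1 wpi (left) and 3 wpi (right), with 95% intervals, 1 colour per treatment and filled points where adjusted p was under 0.05. Igfbpl1 lies at 0.80 to 0.97 in the 3 groups at 1 wpi, and at 3 wpi its filled point at 1.29 belongs to the IL-4 MSC group.

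Between treatments at 1 wpi, 0 of 8 members passed for IL-4 MSCs against PBS (17.4% of all genes), for IL-4 MSCs against MSCs (8.69%) and for MSCs against PBS (0.123%). In each of these 3, edgeR gave 0 members at an unadjusted p under 0.05 and DESeq2 called 0. At 3 wpi 1 of 8, Igfbpl1, passed for IL-4 MSCs against PBS (2.94%) and against MSCs (3.47%), and 0 of 8 for MSCs against PBS (0.0817%), also at an unadjusted p under 0.05 and by DESeq2. Between 3 and 1 wpi, 0 of 8 passed within PBS (5.51%), MSCs (6.15%) and IL-4 MSCs (33.0%), with 1, 1 and 2 members at an unadjusted p under 0.05 and 0 by DESeq2. The week difference was called in 0 of 8 members for IL-4 MSCs against PBS (4.72%), with 1 at an unadjusted p under 0.05 and 0 by DESeq2, in 1 of 8 for IL-4 MSCs against MSCs (7.86%), and in 0 of 8 for MSCs against PBS (0.00%), where 0 members had an unadjusted p under 0.05 and DESeq2 called 0. Comparisons that share a group also share its mice, and the 6 against Sham all rest on the same 5.

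Other genes of the same steps were read from 4 lists. Of 12 dividing cell genes, 11 rose against Sham at 1 wpi in each of the 3 groups, with median log2 changes of 1.37 (PBS), 1.43 (MSCs) and 1.88 (IL-4 MSCs), against −0.005, −0.008 and −0.018 over all genes tested. The mitotic kinase gene Cdk1 rose by 2.31, 2.65 and 3.02 (SE 0.27 each), and the proliferation marker Mki67 by 2.06, 2.11 and 2.72 (SE 0.24 each), with edgeR adjusted p from 5.81e-11 to 3.03e-07. In IL-4 MSC mice 9 of the 12 were higher than in PBS mice and 3 than in MSC mice. At 3 wpi 0 of 12 passed against Sham in any group, with 0, 0 and 3 at an unadjusted p under 0.05 for PBS, MSCs and IL-4 MSCs and 0 by DESeq2. Beside this, 10, 10 and 11 of 12 macrophage and microglia markers were higher than in Sham at 1 wpi. Which cells divided was not measured, and the part of these immune cells in the dividing cell genes was not tested.

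Of 23 stem and progenitor genes tested, 3, 4 and 7 rose and 1, 0 and 2 fell against Sham at 1 wpi in PBS, MSC and IL-4 MSC mice. These were 17.4%, 17.4% and 39.1% of the list, beside 13.8%, 17.8% and 37.0% of all genes tested. Fabp7, the fatty acid binding protein of radial glia, rose by 0.87, 0.84 and 1.04 (SE 0.15 each, edgeR adjusted p = 0.000155, 0.000173 and 2.49e-06). Nes, the intermediate filament of neural stem cells and reactive astrocytes, rose by 0.45 in MSC (SE 0.14, adjusted p = 0.0207) and 1.07 in IL-4 MSC mice (SE 0.14, adjusted p = 1.80e-07), and was higher in IL-4 MSC than in PBS (0.68, SE 0.14, adjusted p = 0.000424) and MSC mice (0.61, SE 0.14, adjusted p = 0.00195). Beside these, 5 of 10 astrocyte markers were higher than in Sham in each group, and 0, 0 and 1 were lower in PBS, MSC and IL-4 MSC mice. At 3 wpi Eomes was higher in IL-4 MSC mice than in Sham by 2.09 (SE 0.44, adjusted p = 0.00618), than in PBS mice by 2.48 (SE 0.50, adjusted p = 0.00634) and than in MSC mice by 2.01 (SE 0.44, adjusted p = 0.00935), and it was the only 1 of the 23 that edgeR called in these 3 comparisons. DESeq2 also called Sox1 against Sham (0.45, adjusted p = 0.0262) and PBS (0.48, adjusted p = 0.0320) and Id4 against Sham (0.37, adjusted p = 0.0225). With the striatum score in the fit the Eomes changes were 1.43 (SE 0.52), 1.62 (SE 0.62) and 1.19 (SE 0.56), and none passed (edgeR adjusted p = 0.261, 0.665 and 0.525).

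Of 24 immature neuron genes, 3, 3 and 3 rose and 2, 3 and 8 fell against Sham at 1 wpi in PBS, MSC and IL-4 MSC mice, and 0 rose and 5 fell in IL-4 MSC mice at 3 wpi. At 1 wpi these were 20.8%, 25.0% and 45.8% of the list, beside 13.8%, 17.8% and 37.0% of all genes, and at 3 wpi 20.8% beside 4.27%. The rises in IL-4 MSC mice included Tubb2b, a beta-tubulin of growing neurons (0.44, SE 0.06, edgeR adjusted p = 1.54e-06), and Cxcr4, a chemokine receptor of migrating neurons that immune cells also carry (2.67, SE 0.26, adjusted p = 5.60e-10). The RNA-binding neuronal genes Elavl4 (−0.34, SE 0.04, adjusted p = 2.18e-07) and Elavl2 (−0.26, SE 0.05, adjusted p = 5.38e-05) fell there. At 3 wpi Marcksl1 was lower in IL-4 MSC mice than in PBS mice (−0.42, SE 0.10, adjusted p = 0.0187), as was Dpysl3 (−0.29, SE 0.07, adjusted p = 0.0210). Against MSC mice edgeR called 0 genes of the list lower and 1, the axon guidance receptor Robo2, higher (0.19, SE 0.05, edgeR adjusted p = 0.0292). DESeq2 also called Plxna4 (−0.26, adjusted p = 0.0414) and Marcksl1 (−0.30, adjusted p = 0.0449) lower than in MSC mice. Beside these, 13 of 13 striatum markers were higher than in PBS mice and 12 of 13 higher than in MSC mice. With the striatum score in the fit the edgeR values above became −0.20 for Marcksl1 (adjusted p = 0.871), −0.11 for Dpysl3 (adjusted p = 0.889) and 0.13 for Robo2 (adjusted p = 0.482), and 0 of the 24 genes passed against Sham, PBS or MSCs.

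Of 20 neuronal fate transcription factors tested, 1, 1 and 3 rose and 1, 0 and 3 fell against Sham at 1 wpi, so that 2, 1 and 6 of the 20 passed beside 13.8%, 17.8% and 37.0% of all genes. Rest, the repressor of neuronal genes in other cells, rose in all 3 groups (0.23, 0.30 and 0.62, SE 0.08 each, edgeR adjusted p = 0.0451, 0.00553 and 8.86e-08). At 3 wpi, IL-4 MSC mice had higher levels than MSC mice of Sp9 (0.94, SE 0.18, adjusted p = 0.00423), Dlx6 (0.98, SE 0.25, adjusted p = 0.0236) and Sp8 (1.18, SE 0.30, adjusted p = 0.0263), 3 factors of GABAergic precursors. Against Sham, Sp9 (0.87, SE 0.18, adjusted p = 0.00519) and Dlx6 (0.88, SE 0.24, adjusted p = 0.0360) were higher and Prox1, the dentate granule cell factor that is also in the dentate gyrus set, was lower (−0.62, SE 0.18, adjusted p = 0.0439). In the same comparisons of the whole IL-4 MSC group, 11 of 13 striatum markers were higher than in Sham with a median of 1.55. Against MSC mice 12 of 13 were higher with a median of 1.88, and the dentate gyrus set had a median of −0.62 against Sham. With the striatum score in the fit 0 of the 20 factors passed in these comparisons, with log2 changes against MSC mice of 0.33 for Sp9 (adjusted p = 0.437), 0.06 for Dlx6 (adjusted p = 0.931) and 0.05 for Sp8 (adjusted p = 0.967), and against Sham of 0.33 for Sp9 (adjusted p = 0.323), 0.07 for Dlx6 (adjusted p = 0.915) and −0.44 for Prox1 (adjusted p = 0.369). That score was measured in the same libraries and follows the group, and with it in the fit 0.636%, 0.0292% and 0.00584% of all genes passed against Sham, PBS and MSCs.

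**Figure D5:**
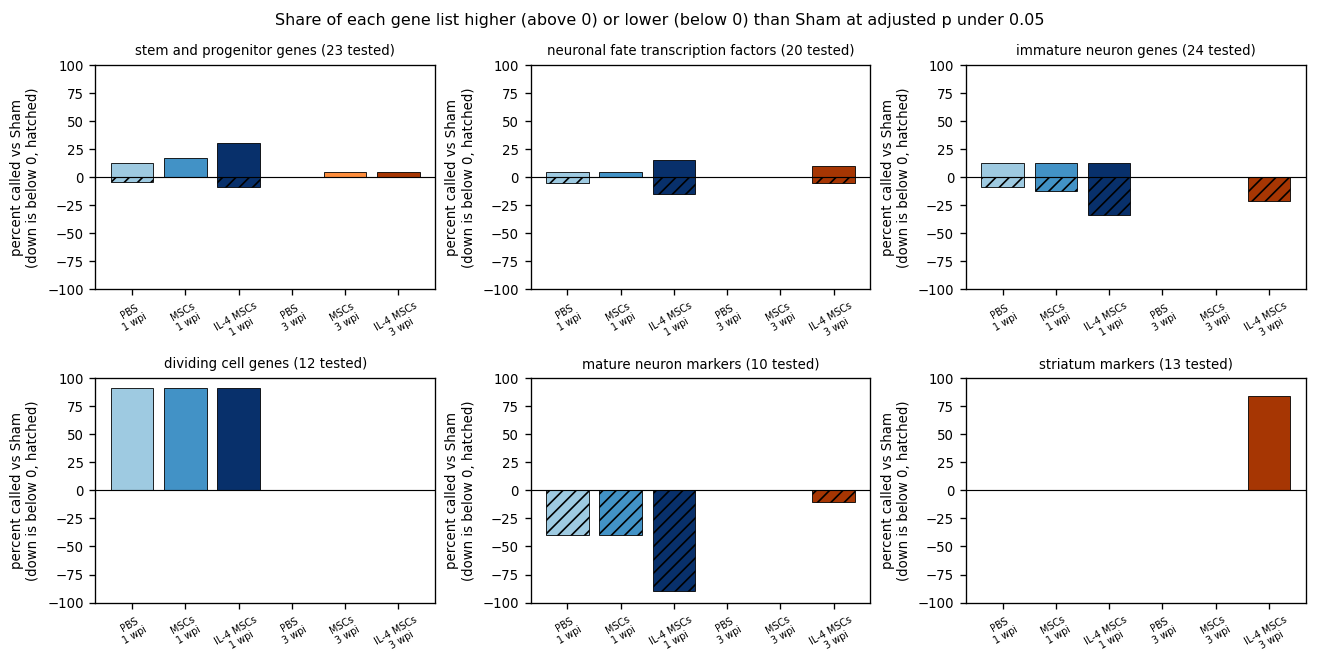
Percent of each gene list (y axis, higher above 0 and lower below 0, hatched) that passed against Sham in the 6 injured groups (x axis), for 6 lists with the number tested in each title. The dividing cell bars stand at 11 of 12 genes in the 3 groups at 1 wpi and are absent at 3 wpi, while the striatum bar stands at 11 of 13 in the IL-4 MSC group at 3 wpi.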

How the data were processed

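RNA-seq of brain tissue was deposited as a table of estimated counts and TPM per gene. Per the study's methods the authors trimmed paired reads (cutadapt 2.4), estimated transcript abundance against protein-coding mouse transcripts with kallisto 0.46 and summed it per gene, with no genome alignment. The deposited estimated counts are not normalized, and the deposited TPM values are scaled for length and depth to the same total in each library. The table also holds fold changes and p-values of the authors' own tests, which were not used. One PBS mouse of 3 wpi was left out by the authors as anomalous and was not analysed here.

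Estimated counts were rounded to whole numbers. Those of Dcx, Sox11 and Tubb3 were not whole in 33 of 34 libraries and those of Sox2 in 7, so some reads were shared with similar transcripts. The counts were fitted with edgeR 4.0.16 (TMM scaling, filterByExpr, quasi-likelihood test) over all 7 groups in R 4.3.3, with Benjamini-Hochberg adjustment over 17131 genes and a threshold of 0.05. The log2 CPM of the scores used a prior count of 2. SE and 95% intervals come from the fit. CPM per mouse is scaled by TMM, and TPM served only to compare genes. With 29838423 counts or more a library, precision was limited by the spread between mice, and for Neurog2 and Igfbpl1 also by counts of at most 137 a mouse.

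The members and the gene lists were chosen with earlier results of these data known. All members are named, with up to 4 genes per list by smallest adjusted p and the 3 genes most like each member. The lists hold stem and progenitor genes, neuronal fate transcription factors, immature neuron genes, dividing cell genes, and markers of mature neurons, astrocytes, oligodendrocyte precursors, macrophages and microglia, striatum, dentate gyrus, hippocampal CA fields, ventricle wall and choroid plexus, and neocortex. Of these, Tfap2c, Neurog1 and Gsx2 did not pass the filter and Ctgf had no row of that name. Alternatives were other scaling, filters, tests (DESeq2 1.42.0), sham mice, mice left out, a replicate block and region scores as covariates. The fits with the dentate gyrus score, the striatum score for genes of the lists, and those with the sham mice of the other week, were added after seeing the data. Gene coordinates are from GENCODE vM21 and upstream windows from RefSeq, both on GRCm38.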

Additional observations from a re-analysis of the deposited data

Results flagged for a closer look

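In 56 sets of mice (8 genes in 7 groups) 2 mice stood apart from their group by Dixon's test, and chance flags about 1 in 20 such sets. Dcx measured 35.2 CPM in mouse 5 of the MSC group at 3 wpi, below the 44.0 to 46.9 CPM of the others. Sox11 measured 51.7 CPM in mouse 4 of the IL-4 MSC group at 3 wpi, above the 34.4 to 37.0 CPM of the others.

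The difference of IL-4 MSCs from MSCs in Igfbpl1 was −0.17 at 1 wpi and 0.91 at 3 wpi on the log2 scale. The test between the times gave −1.08 and passed (edgeR adjusted p = 0.0429). That call held in 4 of 10 other settings and in 5 of 20 fits with 1 mouse left out. The striatum score was 5.89 to 6.72 in 4 of the 5 IL-4 MSC mice at 3 wpi, and with it in the fit the difference between the times was −0.60 (adjusted p = 0.267).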

How the results depend on the processing

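The number of members called was within 1.5 times the reported one in 180 of 219 values from 14 other settings and in 162 of 204 with 1 mouse left out, and no call turned its direction. Counts of 0 that stayed 0 are among these, and which genes were called was not compared. With 1 mouse left out, the count moved in 8 of 9 fits for IL-4 MSCs against PBS at 3 wpi. It moved in 7 of 10 against MSCs, 1 of 10 against Sham and 15 of 20 for the week difference from MSCs. Against Sham at 1 wpi it moved in 5, 2 and 1 of 10 in PBS, MSC and IL-4 MSC mice. A log2 change of at least 1 left 0 members called in PBS, MSC and IL-4 MSC mice at 1 wpi against Sham and in IL-4 MSCs against PBS and against MSCs at 3 wpi. For IL-4 MSCs at 3 wpi the count was 0 against Sham, PBS and MSCs with the striatum score, the dentate gyrus score or both in the fit and with only the 2 groups fitted, 0 against PBS with the ventricle wall and choroid plexus score, 0 against Sham with the sham mice of week 3, and 2 against MSCs with DESeq2 (Igfbpl1 and Neurod1). The week difference of IL-4 MSCs from MSCs went to 0 with library totals, without the filter, with the striatum score, the dentate gyrus score or both. Between 3 and 1 wpi in IL-4 MSCs 1 member was called with the striatum score (Neurod1), both scores (Neurod1) or the ventricle wall score (Dcx). At 1 wpi the count against Sham was 2 in MSC mice with library totals, the striatum score or the sham mice of week 1, 1 in PBS mice without the filter, and, with the sham mice of week 3, 1 in PBS, 0 in MSC and 1 in IL-4 MSC mice. IL-4 MSCs against PBS at 1 wpi gave 1 with only the 2 groups fitted (Neurod1).

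With 1 mouse left out the count against Sham ran from 0 to 2 in PBS, 1 to 2 in MSC and 1 to 3 in IL-4 MSC mice at 1 wpi, and from 1 to 4 in IL-4 MSC mice at 3 wpi. It ran from 0 to 3 for IL-4 MSCs against PBS and against MSCs at 3 wpi, 0 to 2 between the times within IL-4 MSCs, and 0 to 1 for both week differences of IL-4 MSCs. Leaving out mouse 2 of the IL-4 MSC group at 3 wpi gave the highest counts there.

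The numbers after the dash in the labels did not pair the mice: of 99 same-number pairs in different groups 24 had a correlation of deviations over 0.1, with a median of 0.01. With that number as a replicate block the count was 0 for IL-4 MSCs against PBS at 3 wpi, 0 for the week difference from MSCs and 1 between the times within IL-4 MSCs (Dcx), and it stayed within 1.5 times elsewhere. Causes of these changes were not tested. Depth limited Neurog2, with 9 to 41 counts a mouse.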

Other observations

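Marker sets of other cells and regions gave further values beside the 8 genes. Of 10 oligodendrocyte precursor markers, 1, 0 and 3 were higher and 0, 0 and 1 lower than in Sham at 1 wpi in PBS, MSC and IL-4 MSC mice, and 0 were higher and 1 was lower in IL-4 MSC mice at 3 wpi. Of 12 ventricle wall and choroid plexus markers, 3 were higher in IL-4 MSC mice at 1 wpi, with a median log2 change of 0.35. At 3 wpi their median was 0.74 in IL-4 MSC mice with 0 called by edgeR. Of 9 hippocampal CA field markers, 2 were lower in IL-4 MSC mice at 1 wpi, with a median of −0.29. Of 9 neocortex markers, 4, 2 and 5 were lower than in Sham at 1 wpi in PBS, MSC and IL-4 MSC mice. Of 9 dentate gyrus markers, 1 was higher and 2 were lower in IL-4 MSC mice at 1 wpi. Over all genes tested, 13.8%, 17.8% and 37.0% passed against Sham at 1 wpi in PBS, MSC and IL-4 MSC mice. In IL-4 MSC mice at 3 wpi it was 4.27%. In IL-4 MSC mice at 1 wpi the ventricle wall, CA field and dentate gyrus sets passed in smaller shares than all genes. The oligodendrocyte precursor and neocortex sets passed in larger shares there. With 9 to 12 genes a set, none of these shares is read as particular to the set.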
